A study of Homo sapiens with 6 samples.

Results

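The kinesin and tubulin genes of OVCAR3 cells were compared between cells with a control hairpin and cells with a hairpin against NUF2. The genes were chosen by symbol alone: KIF followed by a digit or the letter C, TUBA, TUBB, TUBD, TUBE or TUBG followed by a digit, and TUBB itself. The rule uses no expression value, although the 2 families were picked with earlier results of these data known, and it found 65 of the 19973 genes in the deposited table, 42 kinesins and 23 tubulins. OVCAR3 is an established line of ovarian cancer cells. The cells were transfected with a puromycin-resistance plasmid carrying a short hairpin RNA driven by the U6 promoter, either shNC (labelled as genotype WT) or shNUF2 (labelled as NUF2 knockdown), and selected with puromycin into stable lines. Transfection, plasmid backbone and selection were thus shared by both groups, each of which rested on 1 hairpin. Messenger RNA was sequenced in 3 libraries per group, and the labels do not say whether these came from separate cultures, so the p-values measure only the spread between these libraries, which may be technical.

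The libraries held 13057534 to 16995452 reads counted on genes. Reads were found for 14582 to 14691 genes in the shNC libraries and for 15435 to 15536 in the shNUF2 libraries. NUF2, the target of the hairpin and a subunit of the complex that ties kinetochores to spindle microtubules, gave 903, 1096 and 1092 reads in the shNC libraries, against 281, 290 and 384 in the shNUF2 libraries, a log2 fold change of -1.51 (SE 0.08). Of 9 ovarian carcinoma marker genes, 7 were expressed well enough to be tested, while WFDC2 and WT1 had no more than 7 reads in any library. Of these 7, 4 were higher with shNUF2 and 3 lower at an adjusted p under 0.05, and the 9 markers together stood at 1520 to 1624 CPM (reads scaled to library size) with shNC and 1663 to 1773 with shNUF2. Markers of fibroblasts, leukocytes and endothelial cells summed to at most 90.5, 6.46 and 5.0 CPM in any library, and the fibroblast sum was mostly COL1A1, with PDGFRA at 0 reads in all 6 libraries.

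Microtubules are hollow polymers of alpha- and beta-tubulin dimers, which human cells make from several isotype genes each, and gamma-tubulin starts their assembly at centrosomes. Kinesins are motor proteins that use ATP to walk along microtubules or to take them apart at their ends. One set of kinesins builds the mitotic spindle, moves chromosomes and completes cytokinesis, and another carries vesicles, organelles and RNA between divisions. Many genes for mitotic proteins, with transcripts that peak in G2 and mitosis, share 2 promoter elements, the CCAAT box and the cell cycle genes homology region (CHR).

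The promoters of 6 members are shown because they place these elements beside the changes described later: KIF14 and KIF23 are mitotic kinesins that fell, KIF18B and KIFC1 are mitotic kinesins that rose, and TUBA1A and TUBA1B are neighbouring alpha-tubulin genes of which TUBA1A alone passed the test. Each sequence is the RefSeq reference (GRCh38.p14) from 150 bases before the transcription start to 50 bases after it, 5′ to 3′ on the strand of the gene. Capitals mark CCAAT (or ATTGG on the other strand) and the CHR letters TTTGAA or TTCGAA (or TTCAAA, the reverse complement of TTTGAA). The 6 windows lie at chr1:200620702-200620901 (minus strand, KIF14), chr15:69414199-69414398 (plus strand, KIF23), chr17:44947724-44947923 (minus strand, KIF18B), chr6:33391673-33391872 (plus strand, KIFC1), chr12:49189031-49189230 (minus strand, TUBA1A) and chr12:49131346-49131545 (minus strand, TUBA1B).
KIF14: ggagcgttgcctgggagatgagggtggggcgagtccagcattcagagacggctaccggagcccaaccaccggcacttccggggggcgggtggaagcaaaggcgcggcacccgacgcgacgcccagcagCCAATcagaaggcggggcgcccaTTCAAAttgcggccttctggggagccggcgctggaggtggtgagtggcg
KIF23: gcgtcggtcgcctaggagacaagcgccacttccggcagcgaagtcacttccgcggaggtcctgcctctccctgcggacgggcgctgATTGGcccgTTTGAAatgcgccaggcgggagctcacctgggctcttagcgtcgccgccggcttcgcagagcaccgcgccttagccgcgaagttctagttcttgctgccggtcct
KIF18B: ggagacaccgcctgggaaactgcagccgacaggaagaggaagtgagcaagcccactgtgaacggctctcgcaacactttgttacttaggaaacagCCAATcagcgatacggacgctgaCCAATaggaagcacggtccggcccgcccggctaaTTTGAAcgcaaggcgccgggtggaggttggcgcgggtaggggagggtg
KIFC1: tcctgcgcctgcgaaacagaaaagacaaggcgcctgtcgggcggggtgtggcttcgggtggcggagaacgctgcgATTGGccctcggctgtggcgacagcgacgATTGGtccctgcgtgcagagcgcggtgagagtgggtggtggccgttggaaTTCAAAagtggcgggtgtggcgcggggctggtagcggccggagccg
TUBA1A: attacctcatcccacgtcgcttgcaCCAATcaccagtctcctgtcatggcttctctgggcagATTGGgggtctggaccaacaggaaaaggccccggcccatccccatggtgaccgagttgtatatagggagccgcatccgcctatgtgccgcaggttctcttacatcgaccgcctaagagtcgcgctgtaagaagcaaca
TUBA1B: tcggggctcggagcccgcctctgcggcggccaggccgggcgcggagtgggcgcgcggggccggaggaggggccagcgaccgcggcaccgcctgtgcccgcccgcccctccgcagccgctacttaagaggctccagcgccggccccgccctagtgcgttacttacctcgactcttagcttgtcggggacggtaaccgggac

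In these windows KIF14 had CCAAT 22 bases before the start, KIF23 had it 64 bases before, KIF18B 55 and 32 bases before, and KIFC1 75 and 46 bases before. TUBA1A had CCAAT 125 and 88 bases before its start and no CHR letters, and TUBA1B had neither. Both motifs were searched on both strands of 300-base windows, 250 bases before to 50 after each start. CCAAT occurred in 39.7% of the 27305 genes with a window, CHR letters in 19.5% and both in 7.85%. Among the 15 mitotic kinesins, 10 had both (66.7%), against 2 of the other 19 kinesins (10.5%) and 3 of 23 tubulins. Of the 65 members 57 had a window, and KIF5A, KIF13B, KIF19, KIF21B, KIF26B, KIF27, KIFC2 and KIFC3 had none. The 10 mitotic kinesins with both motifs did not share a direction: of the 9 that were tested, KIF18B and KIFC1 were higher with shNUF2, KIF11, KIF14, KIF22 and KIF23 were lower, and KIF18A, KIF20B and KIF4A did not pass the test. A match of these letters is a description and does not show that a factor binds there.

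Genes were tested where at least 3 libraries reached 0.682 CPM, which kept 12874 genes and 49 of the 65 members (32 kinesins and 17 tubulins). At an adjusted p under 0.05 (edgeR's quasi-likelihood test, Benjamini-Hochberg over all genes tested), 18 members were higher with shNUF2 and 15 were lower, and 16 did not pass. Over all genes tested 33.9% were higher and 33.8% were lower by the same rule, so the members as a whole stood near this background, with a median log2 fold change of 0.05 beside -0.01 for all genes. The split differed between the families: 9 of 17 tubulins were higher and 2 lower (median 0.41), while 9 of 32 kinesins were higher and 13 lower (median -0.03). Without TUBB2B, TUBB3 and TUBB4A, low tubulins that passed the filter through the shNUF2 libraries, 7 of 14 tubulins were higher and 2 lower (median 0.21). A filter of 1 CPM in every library, which leaves these 3 out, gave 16 higher and 14 lower of 44 members. The difference between the families was not tested. For 33 tested members the CPM ranges of shNC and shNUF2 were apart. In 19 shNUF2 was above (35.2% of all genes) and in 14 it was below (35.4% of all genes). The 19 include TUBB2B, TUBB3 and TUBB4A.

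**Figure D1:**
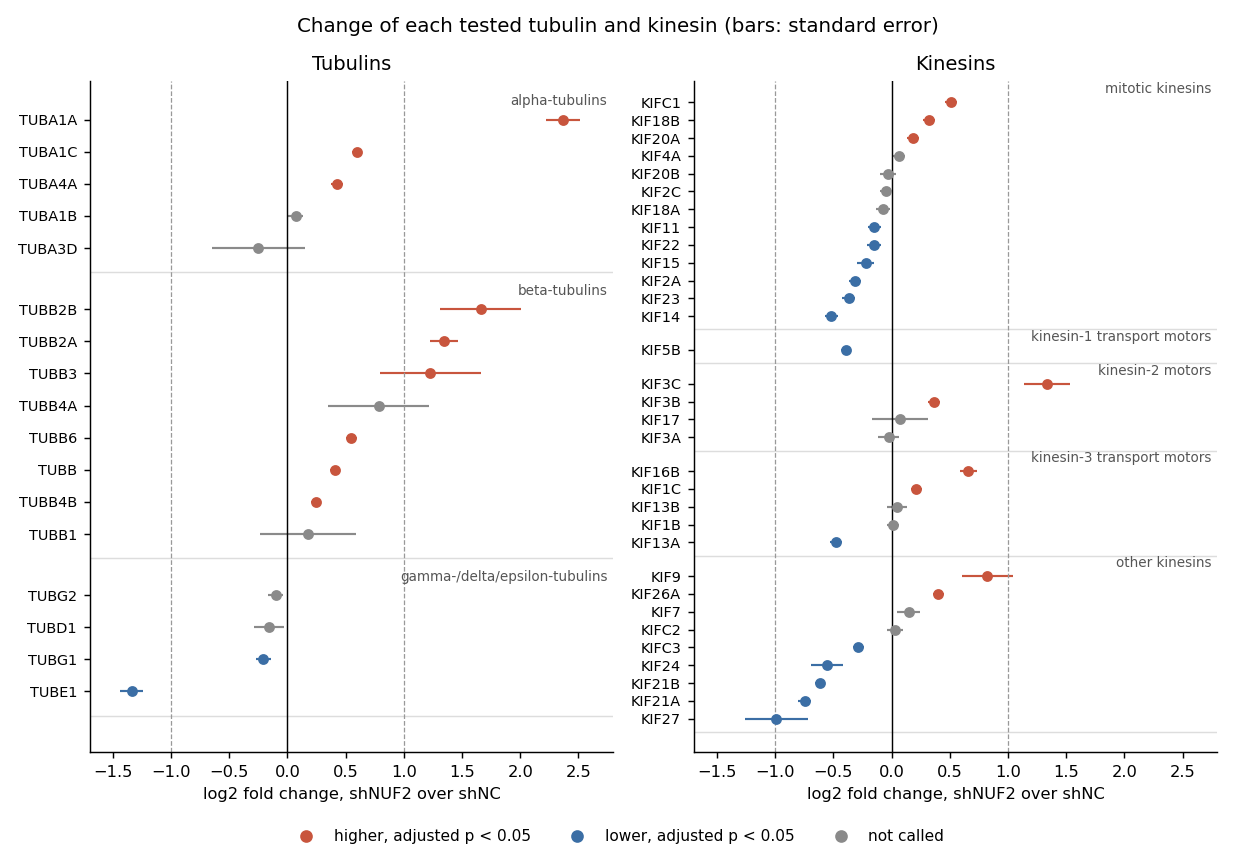
Log2 fold change of shNUF2 over shNC for each tested tubulin (left) and kinesin (right), grouped by role; points are estimates from 3 libraries a group, bars are standard errors, and dashed lines mark -1 and 1. Most alpha- and beta-tubulins lie right of 0, TUBE1 lies at -1.34, and the mitotic kinesins lie between -0.52 and 0.51 on either side of 0.

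By a fold rule after the study's methods, whose fold change limits were read here as log2 values beyond 1 in either direction, with an unadjusted p under 0.05, 5 members were higher (TUBA1A, TUBB2A, TUBB2B, TUBB3 and KIF3C) and TUBE1 alone was lower. Of all genes 9.41% were higher and 4.16% lower by that rule. TUBB2B and TUBB3 passed the filter through the shNUF2 libraries, and a filter of 1 CPM in every library left 3 higher members. Just inside the threshold stood TUBB3 with a log2 fold change of 1.23, and just outside it stood KIF27 with -0.99. KIF27 crossed it without shNC replicate 1 (-1.14) and without shNUF2 replicate 2 (-1.48), which made 2 lower members. All values are shares of the RNA in a library of many cells, so fewer cells of a kind and less RNA per cell cannot be told apart.

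Alpha-tubulin transcripts were higher with shNUF2 for 3 of the 5 tested genes (33.9% of all genes) and lower for none (33.8% of all genes). Their median log2 fold change was 0.43. TUBA1A, the isotype best known from neurons, showed the largest change of any tested member. It had shNC read counts of 80, 62 and 63 and shNUF2 read counts of 323, 278 and 331. Every shNUF2 library was far above every shNC library, and the log2 fold change was 2.37 (SE 0.14, adjusted p = 8.1e-14). TUBA1A began from a low level, 1.40 ± 0.34 FPKM (SD, n = 3; fragments scaled to gene length and library total) and reached 6.97 ± 0.35. Under limma on log2(FPKM + 1), which dampens low genes, its log2 change was 1.74.

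TUBA1C, a widely expressed isotype, gave 2391, 2494 and 2995 reads in the shNC libraries, against 3416, 3301 and 3706 in the shNUF2 libraries. The groups did not overlap, and the log2 fold change was 0.60 (SE 0.05, adjusted p = 1.16e-11). TUBA4A, also widely expressed, had shNC read counts of 1573, 1603 and 1733 and shNUF2 read counts of 1946, 1813 and 2026. Its groups were also apart, with a log2 fold change of 0.43 (SE 0.05, adjusted p = 3.37e-08). TUBA1B, a main isotype of dividing cells, gave 1517, 1613 and 2215 reads in the shNC libraries, against 1547, 1604 and 1746 in the shNUF2 libraries. Here the groups overlapped and the test was not passed (log2 fold change 0.07, SE 0.06, adjusted p = 0.326). The highest TUBA1B library was shNC replicate 3, and without it the log2 fold change was 0.18 with an adjusted p of 0.00643.

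These 3 genes lie side by side on chromosome 12, at 49184795 to 49189080 (TUBA1A, minus strand), 49127782 to 49131397 (TUBA1B, minus strand) and 49188736 to 49274600 (TUBA1C, plus strand), in GRCh38 as the deposited table gives them. Their spliced sequences share stretches. In GENCODE release 29, 18.3% of the 100-base windows of TUBA1A, 37.2% of those of TUBA1B and 11.5% of those of TUBA1C also occurred in another gene, and the 5′ ends of TUBA1A and TUBA1C overlap on opposite strands. How shared reads and strand were handled in counting is not given in the sources used here, and their part in the result was not tested.

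Beta-tubulin transcripts rose for 6 of the 8 tested genes (33.9% of all genes) and fell for none (33.8% of all genes). Their median log2 fold change was 0.67. The count and the median take in TUBB2B, TUBB3 and TUBB4A, which passed the filter through the shNUF2 libraries. Without these 3 the values are 4 of 5 and 0.41. The larger changes were in isotypes of low level, and more genes had reads in every shNUF2 library than in any shNC library (15435 or more against 14691 or fewer), whose part in these changes was not tested. TUBB2A had shNC read counts of 122, 123 and 131 and shNUF2 read counts of 261, 276 and 301. All shNUF2 libraries were above all shNC libraries, with a log2 fold change of 1.34 (SE 0.12, adjusted p = 1.37e-10), and the level went from 4.61 ± 0.29 to 11.4 ± 0.64 FPKM (SD, n = 3). Its neighbour TUBB2B, known from the developing brain, gave 16, 11 and 11 reads in the shNC libraries, against 31, 42 and 33 in the shNUF2 libraries. These groups were apart too, and the log2 fold change was 1.66 (SE 0.35, adjusted p = 1.61e-04). TUBB2A and TUBB2B are near copies, with 56.4% and 46.2% of their 100-base windows found in another gene, mostly in each other, so that reads may have been split between them.

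TUBB3, the neuronal isotype often measured in drug-resistant tumours, had shNC read counts of 10, 7 and 10 and shNUF2 read counts of 10, 22 and 24. The raw counts met at 10, and scaled to library size every shNUF2 library was above every shNC library. Its log2 fold change was 1.23 (SE 0.44, adjusted p = 0.0150). This call was lost without shNC replicate 2 (adjusted p = 0.0675), shNUF2 replicate 2 (0.0754) or shNUF2 replicate 3 (0.0716). In addition 79.1% of its windows occurred in other genes, mostly in the readthrough gene AC092143.1 that overlaps it on the same strand. TUBB4A gave 8, 10 and 9 reads in the shNC libraries, against 15, 12 and 14 in the shNUF2 libraries. The counts did not overlap, but the test was not passed (log2 fold change 0.79, SE 0.43, adjusted p = 0.111). TUBB2B, TUBB3 and TUBB4A reached the filter level in all 3 shNUF2 libraries and in 2, 1 and 0 shNC libraries, so they entered the test through the group in which they were higher.

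The abundant beta isotypes rose by smaller steps. TUBB, the main isotype of many dividing cells, had shNC read counts of 7372, 8259 and 9388 and shNUF2 read counts of 9453, 9133 and 10406. The raw counts overlapped, but scaled to library size the groups did not, and the log2 fold change was 0.41 (SE 0.04, adjusted p = 1.31e-09). TUBB6 gave 2176, 2242 and 2462 reads in the shNC libraries, against 2825, 2896 and 3086 in the shNUF2 libraries. Its groups were apart on both scales, with a log2 fold change of 0.55 (SE 0.05, adjusted p = 1.18e-10). TUBB4B, the most abundant tubulin transcript per length though not by reads, had shNC read counts of 5774, 6829 and 6686 and shNUF2 read counts of 6186, 6457 and 7398. Only after scaling to library size were its groups apart, and the log2 fold change was 0.24 (SE 0.04, adjusted p = 2.83e-05).

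**Figure D2:**
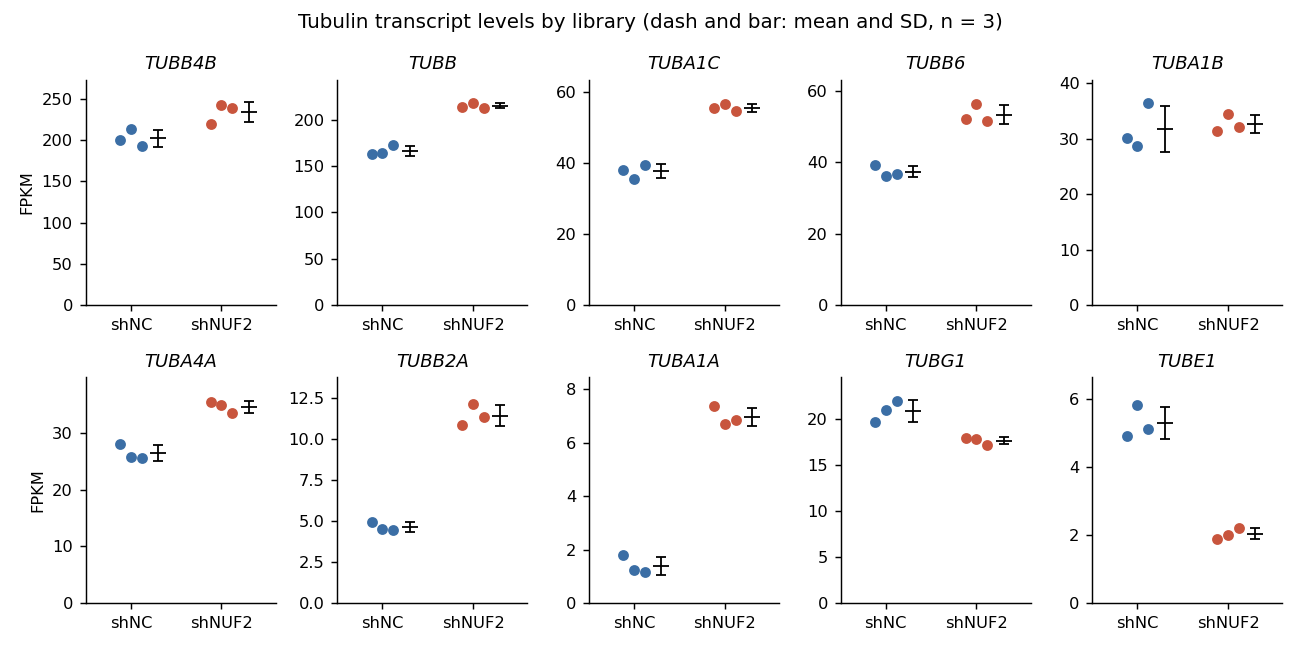
FPKM of 10 tubulin transcripts in each library, with the mean and SD of the 3 libraries beside the points and each axis starting at 0. TUBB4B rises from a mean of 202.5 to 233.8 FPKM and TUBB from 166.3 to 214.9, TUBA1B overlaps between groups, and TUBE1 drops from 5.30 to 2.04.

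Summed over isotypes, alpha-tubulin transcripts stood at 99.3, 92.4 and 103.8 FPKM with shNC and 130.7, 133.6 and 128.5 with shNUF2. The sum of beta isotypes was 408.8, 419.1 and 407.4 FPKM with shNC and 498.4, 531.8 and 516.1 with shNUF2. In both classes every shNUF2 library was above every shNC library, and the ratio of means was 1.33 for alpha and 1.25 for beta. Of the alpha pool, TUBA1B made up 32.2 ± 2.6% with shNC and 24.9 ± 0.86% with shNUF2 (SD, n = 3), TUBA1C 38.3% and 42.5%, TUBA1A 1.42% and 5.33%, and TUBA4A 27.0% and 26.5%. In the beta pool TUBB4B made up 49.2% and 45.3%, TUBB 40.4% and 41.7%, TUBB6 9.08% and 10.3%, and TUBB2A 1.12% and 2.21%. A two-sided exact permutation test of 3 against 3 libraries cannot go below p = 0.1. Of the 19 shares tested 9 reached that smallest value of the exact test (0.211 after adjustment), those of TUBA1A, TUBA1B, TUBA1C, TUBB2A, TUBB4B and TUBB6 and the small ones of TUBA3E, TUBB2B and TUBB4A, while TUBB (p = 0.3) and TUBA4A (p = 0.8) did not.

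**Figure D3:**
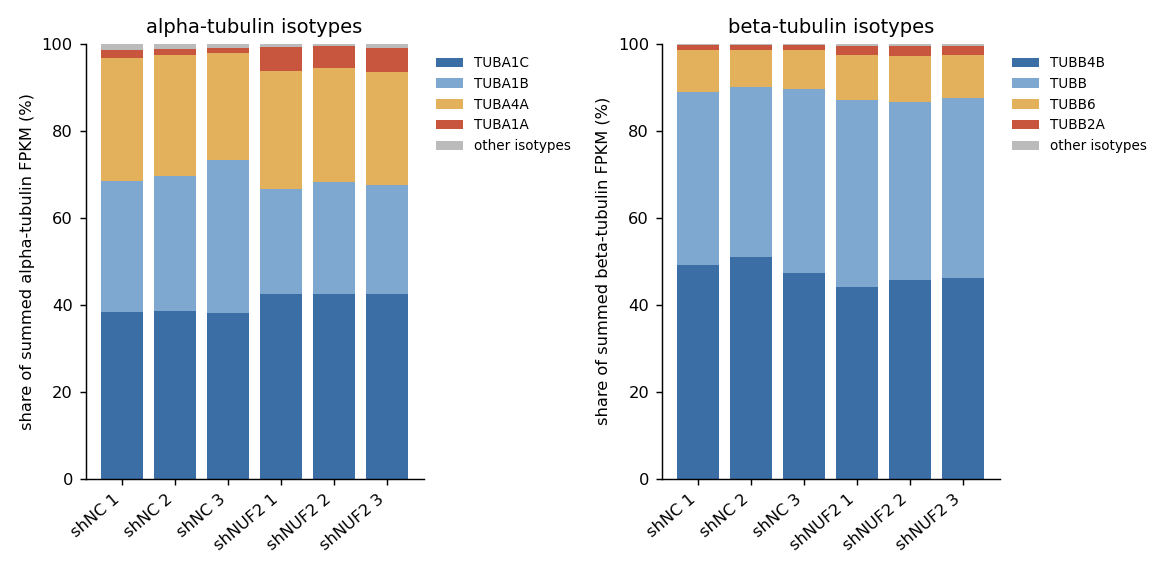
Share of each isotype in the summed FPKM of the alpha-tubulins (left) and beta-tubulins (right), in percent, 1 bar for each of the 6 libraries. The TUBA1A part widens from 1.12 to 1.80% in the shNC bars to 5.02 to 5.64% in the shNUF2 bars, while TUBA1B narrows and TUBB4B shifts by a few points.

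Of the 4 gamma-, delta- and epsilon-tubulins, none rose (33.9% of all genes) and 2 fell (33.8% of all genes). TUBE1, epsilon-tubulin of the centriole, gave 493, 650 and 617 reads in the shNC libraries, against 185, 186 and 238 in the shNUF2 libraries. No shNUF2 library came near a shNC library, and the log2 fold change was -1.34 (SE 0.10, adjusted p = 2.2e-12). TUBD1, the delta-tubulin that works with it, had shNC read counts of 170, 187 and 179 and shNUF2 read counts of 137, 129 and 155. Its groups did not overlap, yet the test was not passed (log2 fold change -0.16, SE 0.13, adjusted p = 0.274). TUBG1, the main gamma-tubulin, gave 668, 794 and 900 reads in the shNC libraries, against 595, 562 and 630 in the shNUF2 libraries. All shNUF2 libraries were lower, with a log2 fold change of -0.21 (SE 0.07, adjusted p = 0.00856). This call was lost without shNC replicate 3 (adjusted p = 0.0511), which leaves TUBE1 as the 1 lower tubulin. TUBG1 and its copy TUBG2 share 14.9% and 13.6% of their windows, and TUBG2 did not pass (log2 fold change -0.10), except with limma on log2 FPKM.

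The mitotic kinesins moved both ways, with 23.1% higher and 46.2% lower, beside 33.9% and 33.8% of all genes tested. Of the 13 tested, 3 rose (KIFC1, KIF18B and KIF20A), 6 fell (KIF14, KIF23, KIF2A, KIF15, KIF22 and KIF11) and 4 did not pass (KIF2C, KIF18A, KIF20B and KIF4A), with a median log2 fold change of -0.07 and none beyond -0.52 or 0.51. The cytokinesis motor KIF14 had shNC read counts of 1446, 1738 and 1964 and shNUF2 read counts of 977, 952 and 1217. The groups did not overlap, and KIF14 had the largest fall of these kinesins, with a log2 fold change of -0.52 (SE 0.06, adjusted p = 7.8e-09). KIFC1, a minus-end motor that focuses spindle poles and gathers extra centrosomes, gave 1148, 1348 and 1376 reads in the shNC libraries, against 1515, 1555 and 1756 in the shNUF2 libraries. Its shNUF2 libraries were all higher, with a log2 fold change of 0.51 (SE 0.05, adjusted p = 1.13e-09). KIF2C, a microtubule depolymerase at centromeres, had shNC read counts of 1535, 1836 and 2070 and shNUF2 read counts of 1453, 1455 and 1681. Its groups overlapped, and the test was not passed (log2 fold change -0.05, SE 0.05, adjusted p = 0.373).

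Among the motors of the central spindle and cytokinesis, KIF23, the motor of centralspindlin, fell (log2 fold change -0.37), as KIF14 did. KIF20A, which brings the Aurora B complex to the midzone, rose (0.18), and KIF4A, which limits midzone microtubule growth, had 0.06 and did not pass. Of the motors that push spindle poles apart, KIF11 (Eg5) had a log2 fold change of -0.15 and its backup KIF15 had -0.22. KIF22, a chromosome-arm motor, had -0.15, and these 3 calls were the least secure. KIF11 was not called without shNC replicate 2 (adjusted p = 0.147) or shNUF2 replicate 1 (0.128), KIF15 without shNC replicate 2 (0.0750) or shNUF2 replicate 2 (0.0834), and KIF22 without shNC replicate 3 (0.143) or shNUF2 replicate 1 (0.224). Of the motors that shorten microtubules, KIF2A fell (-0.31), KIF18B rose (0.32), and KIF18A, which aligns chromosomes, did not pass (-0.07).

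**Figure D4:**
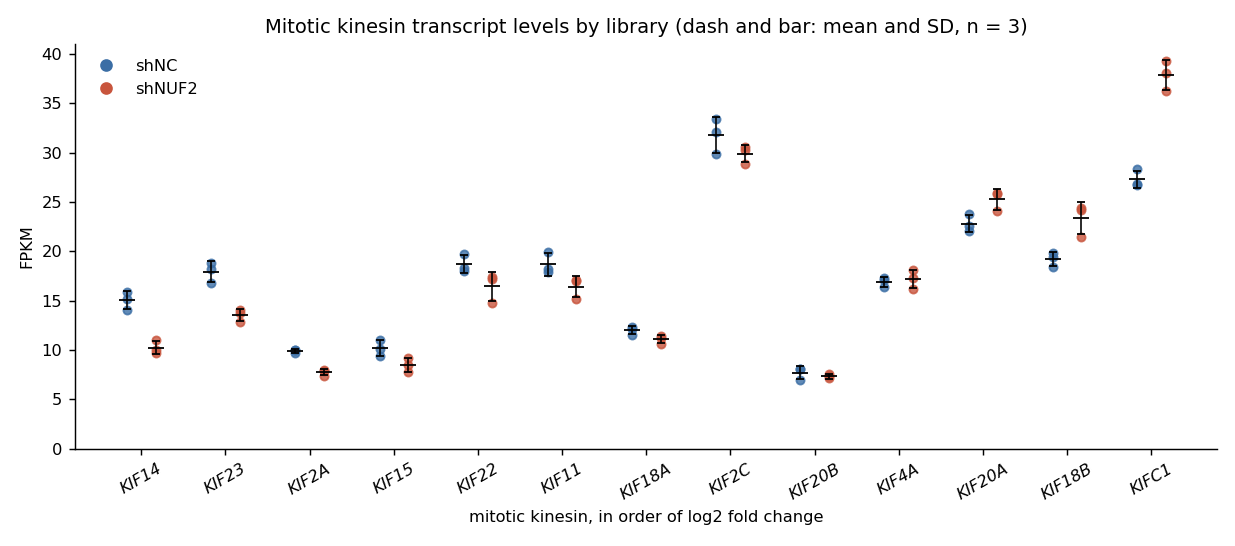
FPKM of the 13 tested mitotic kinesins in each library, ordered from the lowest to the highest log2 fold change, with the mean and SD of the 3 libraries of each group. KIFC1 lies at a mean of 27.3 FPKM with shNC and 37.9 with shNUF2, and KIF23 at 17.9 and 13.5.

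Other transcripts of the late cell cycle were also mixed, set here beside 33.9% higher and 33.8% lower of all genes tested. Of 15 G2/M transcripts 8 were higher and 3 lower (median log2 fold change 0.12), from UBE2C, the ubiquitin-conjugating enzyme of the anaphase-promoting complex (0.56), to TOP2A, topoisomerase II alpha (-0.67). Their summed level was 2654 to 2751 CPM with shNC and 2508 to 2575 with shNUF2, a sum in which the fall of TOP2A, from 11247, 12973 and 13632 reads to 6621, 6384 and 7802, weighs heavily. Of 12 S phase transcripts none was higher and 7 were lower (median -0.15), the lowest being the replicative helicase subunit MCM6 (-0.63), and their sum was 1812 to 1856 CPM with shNC and 1544 to 1568 with shNUF2. The share of cells in each phase was not measured, and its part in the kinesin values was not tested.

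Of the kinesin-1 motors, which haul cargo over long distances, KIF5B was the only one expressed well enough to test, and it had the most reads of any kinesin in both groups. It gave 4118, 4794 and 4884 reads in the shNC libraries, against 2978, 2830 and 3400 in the shNUF2 libraries. The groups were clearly apart, the log2 fold change was -0.39 (SE 0.04, adjusted p = 7.0e-09), and the level went from 50.3 ± 1.6 to 37.3 ± 0.69 FPKM (SD, n = 3). The neuronal copies were nearly absent: KIF5A had shNC read counts of 2, 0 and 3 and shNUF2 read counts of 1, 6 and 4, and KIF5C had 0, 1 and 2 and then 4, 0 and 4. In both the groups overlapped, and no fold is given.

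Kinesin-2 motors form complexes for cargo transport and for building cilia. KIF3C, an alternative partner of KIF3A, gave 37, 54 and 65 reads in the shNC libraries, against 123, 87 and 134 in the shNUF2 libraries. Its groups were apart, and with a log2 fold change of 1.33 (SE 0.20, adjusted p = 1.38e-06) it rose most of the tested kinesins. KIF3B, the usual partner of KIF3A, had shNC read counts of 1538, 1546 and 1686 and shNUF2 read counts of 1756, 1744 and 1882. These groups did not overlap either (log2 fold change 0.36, SE 0.05, adjusted p = 6.7e-07). KIF3A itself and KIF17 did not pass the test, at -0.03 and 0.07. Per length KIF3B was the most abundant of the 4 in both groups, at 16.71 and 20.95 FPKM, while KIF3C reached 0.515 and 1.27 FPKM.

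Kinesin-3 motors carry membrane cargo. KIF16B, which moves early endosomes, gave 487, 525 and 567 reads in the shNC libraries, against 715, 637 and 837 in the shNUF2 libraries. Every shNUF2 library was higher, with a log2 fold change of 0.66 (SE 0.07, adjusted p = 6.4e-09). KIF13A, which moves recycling endosomes, had shNC read counts of 1400, 1592 and 1750 and shNUF2 read counts of 950, 952 and 1078. Here every shNUF2 library was lower, with a log2 fold change of -0.48 (SE 0.05, adjusted p = 5.4e-09). KIF1C rose (0.21), and KIF1B, a carrier of mitochondria and vesicles, and KIF13B did not pass (0.01 and 0.05).

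Among the other kinesins 5 of 9 tested genes fell (33.8% of all genes) and 2 rose (33.9% of all genes). The kinesin-4 motors KIF21A and KIF21B, which restrain microtubule growth, both fell, KIF21A from 1721, 1999 and 1926 reads to 929, 897 and 1128 (log2 fold change -0.75) and KIF21B from 3062, 3471 and 3656 to 1927, 1737 and 2170 (-0.62). KIF24, which holds back cilium formation at the centriole, fell by 0.56 on the log2 scale, and KIFC3, a minus-end motor of epithelial cells, by 0.29. KIF26A, a member without motor activity, rose (0.40). KIF27, a relative of the Hedgehog pathway kinesin KIF7, gave 64, 103 and 110 reads in the shNC libraries, against 37, 61 and 22 in the shNUF2 libraries. The groups overlapped scaled to library size, since shNUF2 replicate 2 stood above the lowest shNC library, and the log2 fold change was -0.99 (SE 0.27, adjusted p = 0.00225). The value ran from -0.65 without shNUF2 replicate 3 to -1.48 without shNUF2 replicate 2, and 12.3% of its windows occurred in other genes.

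KIF9, known from motile cilia, had shNC read counts of 34, 45 and 66 and shNUF2 read counts of 65, 71 and 88. Scaled to library size all shNUF2 libraries were higher, with a log2 fold change of 0.82 (SE 0.22, adjusted p = 0.00187), which passed the fold threshold without shNC replicate 3 (1.04). KIF7 and KIFC2 did not pass (0.15 and 0.03). Of the 16 members that were not tested, none exceeded 21 reads in any library, and TUBB8 and KIF2B had none at all. Among them KIF12 and KIF25 are named because their groups were apart, and no share over untested genes was taken. KIF12 gave 6, 3 and 2 reads in the shNC libraries, against 13, 12 and 9 in the shNUF2 libraries. KIF25 had 0, 4 and 7 and then 8, 8 and 21. These counts were too low to enter the test. Every shNUF2 library had reads for more genes than any shNC library (15435 or more against 14691 or fewer), and the part of this was not tested.

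Genes that act with kinesins and tubulins were taken from lists and are given by their counts. Each count stands beside 33.9% higher and 33.8% lower of all genes tested. A list of 6 kinesin partners and CENPE, a mitotic kinesin whose symbol is outside the rule used here, had 3 higher and 2 lower genes of 7 (median log2 fold change 0.08), and CENPE was one of those that fell (-0.22). The kinesin light chain KLC3, a cargo adaptor of kinesin-1, had shNC read counts of 25, 56 and 60 and shNUF2 read counts of 211, 145 and 184. That rise of 2.13 on the log2 scale (SE 0.20, adjusted p = 4.6e-10) ran opposite to the fall of its motor KIF5B. The binding protein KIFBP, which keeps kinesins off microtubules, fell by 0.23.

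Tubulin folding and autoregulation genes split into 11 higher and 8 lower of 22 (50% and 36.4%, beside 33.9% and 33.8% of all genes tested, median 0.11). TBCE, a cofactor that assembles alpha-beta dimers, rose from 56, 56 and 62 reads to 97, 92 and 113 (log2 fold change 0.98), and TBCEL, a related protein that destabilises tubulin, fell from 249, 335 and 338 to 120, 91 and 148 (-1.17). Of 19 tubulin modifying enzymes 1 rose, the deacetylase SIRT2 (0.31), and 6 fell, with TTLL6, a polyglutamylase, lowest at -1.65 (from 166, 136 and 158 reads to 54, 31 and 44). The median of these enzymes was -0.13.

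The gamma-tubulin ring complex, which nucleates microtubules, had 1 higher and 4 lower of 9 genes (median -0.17). Its subunit TUBGCP2 rose (0.55), whereas NEDD1, which recruits the complex to the spindle, fell from 871, 1108 and 1094 reads to 536, 465 and 635 (-0.72). Microtubule regulators were higher for 11 and lower for 8 of 26 (42.3% and 30.8%, beside 33.9% and 33.8% of all genes tested, median 0.12). The highest value was that of MAP1B, a neuronal microtubule-associated protein that went from 4, 1 and 3 reads to 15, 12 and 14 (log2 fold change 2.49, SE 0.58), and that was below the filter level in every shNC library, so it entered the test through the group in which it was higher. Dynein and dynactin genes, which move cargo the other way, were higher for 9 and lower for 2 of 19 (median 0.02), from the light chain DYNLRB1 (1.16) to the light chain DYNLL1 (-0.42).

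**Figure D5:**
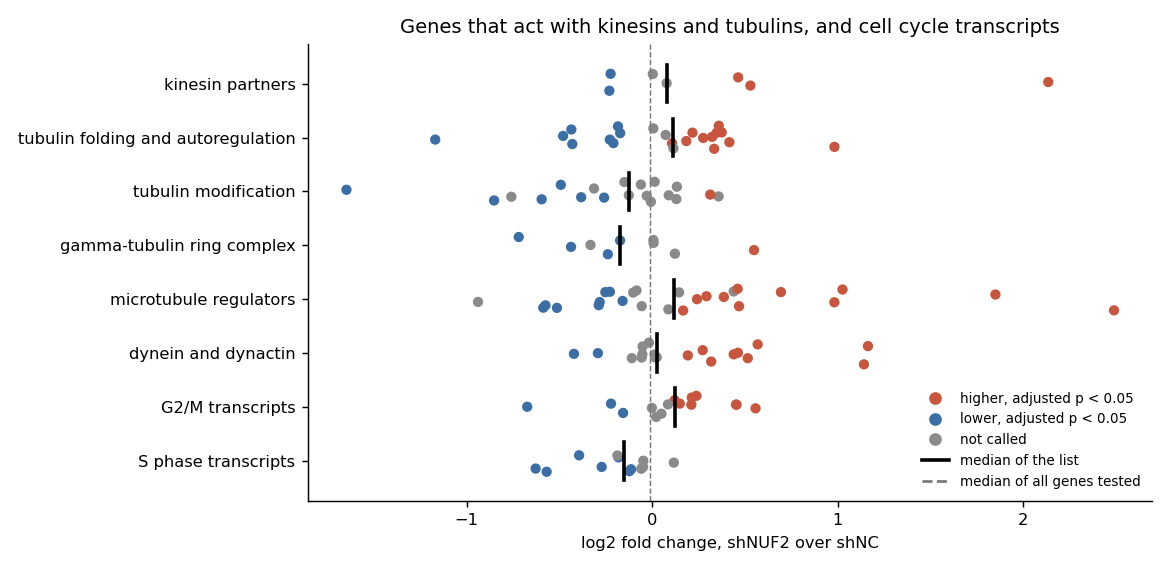
Log2 fold change of shNUF2 over shNC for each tested gene of 8 lists, 1 point a gene, coloured by its call, with a thick bar at the median of each list and a dashed line at the median of all genes tested (-0.01). The list medians lie between -0.17 and 0.12, and every list but S phase holds genes called in both directions.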

How the data were processed

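RNA-seq of OVCAR3 cells gave 6 libraries, 3 with shNC and 3 with shNUF2, grouped by GEO's labels. Libraries were made with a stranded mRNA kit. The authors deposited raw read counts per gene, and FPKM values, which match count over gene length and library total (largest relative deviation 2.71e-07). The submitters' processing notes name cutadapt, HISAT, HTSeq and GRCh38.p13. The strand setting, the treatment of shared reads and the annotation release are not given in the sources used here.

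Counts of all 19973 genes were filtered with filterByExpr (minimum count 10), normalized by TMM and compared by the quasi-likelihood test in edgeR 4.0.16 (R 4.3.3) with all 6 libraries and no covariate. Adjustment was by Benjamini-Hochberg over 12874 genes, and genes were called under 0.05. The fold rule, a log2 fold change beyond 1 and p under 0.05, follows the study's methods, which do not state the scale; log2 is the reading made here. Standard errors were derived from the fold change and the root of its F statistic. FPKM was used to compare genes and isotype shares. Totals of 13057534 to 16995452 reads limit precision for genes of few reads.

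The members and lists were chosen with earlier results of these data known. Values per library are given for members past the fold threshold, the lowest and highest called member of each role group, the 3 kinesins and 5 tubulins of highest mean FPKM, and members with 3 reads or fewer in 1 group only. From each list of other genes the called gene with the largest rise and fall is named. The largest fall among the microtubule regulators is not reported here. TUBB4A, TUBD1, KIF21A, KIF21B, KIF12 and KIF25 were given values per library after these were seen. Shared 100-base windows came from GENCODE release 29 and promoters from RefSeq (GRCh38.p14). Alternatives were DESeq2 1.42.0, limma 3.58.1 on log2(FPKM + 1) and log2(FPKM + 0.1), other scalings and filters, a replicate block and each library left out. The tests were tried on simulated counts. Python 3.11.15 with pandas 2.3.3 and matplotlib 3.10.9 was used for sequences and plots.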

Additional observations from a re-analysis of the deposited data

How the results depend on the processing

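The counts of higher and lower members at the adjusted p stayed within 17 to 19 and 13 to 15 with each library left out, those of higher tubulins within 8 to 10, and those of mitotic kinesins at 3 higher and 4 to 6 lower. No member that passed the test changed direction under any alternative. Lower tubulins numbered 1 to 2 when libraries were left out, the lower value without shNC replicate 3 through TUBG1, and 3 with limma on log2 FPKM at either pseudocount, which added TUBG2. The fold threshold was less stable. The 5 higher members became 3 with a filter of 1 CPM in every library, which drops TUBB2B and TUBB3, and 2 with limma on log2(FPKM + 1), where the added constant shrinks the change of low genes, and ran from 4 to 7 with libraries left out. The 1 lower member became 2 with library totals only, with no filter on low counts and with the replicate block, because KIF27 passed -1, and lay between 1 and 2 with libraries left out. Replicate numbers were shared between groups, but same-numbered libraries did not deviate together (correlations of 0.03, 0.014 and -0.043), so the numbers were not taken as pairs, and the block changed 0 of 49 calls of members at the adjusted p. With DESeq2, KIF11 (adjusted p = 0.0603) and KIF22 (0.0841) were not called, nor was KIF22 with the filter of 1 CPM in every library (0.0666), and TUBB4A was called with limma on log2(FPKM + 1) (adjusted p = 0.0343) and on log2(FPKM + 0.1) (0.0250). A filter of a mean of 1 CPM over the 6 libraries, chosen after seeing the data, gave 17 higher and 15 lower members. Depth limits TUBA3D, TUBB1, TUBB2B, TUBB3 and TUBB4A, with 7 to 42 reads a library.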
